A study of Danio rerio with 6 samples.

Results

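Voltage-gated calcium, sodium and potassium channel genes, together with the other potassium channel genes, were followed in RNA from whole zebrafish embryos aged 3 days post fertilisation. The members were the genes whose deposited symbols carry the family prefixes for calcium channel subunits (cacna, cacnb and cacng), voltage-gated sodium channel subunits (scn followed by a digit) or potassium channels (kcna to kcnv). Of 31452 genes listed, 195 had such a symbol, and 170 of them reached 10 counts summed over the 6 libraries. These 170 comprised 46 calcium, 14 sodium and 110 potassium channel genes, and amiloride-sensitive sodium channel genes were left out. Just inside this limit were KCNN4 (1 of 2) and kcnma1b, with 10 counts in all, and just outside it KCNA2 (1 of 2), KCNA4 and KCNK2 (2 of 2), with 9. Both groups came from a cross of Tg(14xUAS:GFP-EWSR1-ERG) fish with fish carrying the Gal4 enhancer trap Et(E1b:Gal4-VP16)s1101t and the reporter Tg(UAS:Kaede) s1999t. In 3 pools the embryos expressed EWSR1-ERG, a chimeric transcription factor of Ewing sarcoma, in neurons. The other 3 pools were wild-type siblings labelled as not expressing it, and the labels do not say which of the driver and reporter they inherited. Each pool held 15 embryos. In such bulk samples, fewer cells of a type and less RNA per cell cannot be told apart.

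Calcium channels consist of a pore-forming alpha1 subunit with accessory alpha2delta, beta and, in muscle, gamma subunits; they couple depolarisation to contraction, transmitter release and gene expression. Sodium channels carry the upstroke of the action potential, and potassium channels repolarise the membrane and set the resting potential. In the retina, photoreceptor ribbon synapses release transmitter through an L-type calcium channel encoded by cacna1f genes with the alpha2delta subunit of cacna2d4 genes, and kcnv2 genes encode a potassium channel subunit that is silent alone and assembles with KCNB pore-forming subunits in photoreceptor inner segments. In skeletal muscle, the L-type channel encoded by cacna1s genes is the voltage sensor for excitation-contraction coupling.

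The channel genes were sparsely covered. They took 0.0817% to 0.102% of the counts in EWSR1-ERG pools and 0.0934% to 0.121% in wild-type pools, in libraries of 5611197 to 13338802 counts and 4771843 to 5672149 counts. A count of 0 allows up to 3 counts, or 0.230 to 0.678 CPM (counts scaled to library size), and this limit covers counting error only. EWSR1-ERG replicate 3 was the deepest library and is marked with sequencing lane 1, the other 5 with lane 2. Mitochondrially encoded genes took 2.64% to 2.99% of the counts in EWSR1-ERG pools and 3.87% to 4.35% in wild-type pools. Within the groups, EWSR1-ERG replicate 1 and wild-type replicate 3 differed most from their companions. The filter on low counts left 109 channel genes for testing. The 61 that did not pass had 10 to 68 counts in all, and they include both KCNJ10 genes of glia, the heart and neuronal calcium channel gene cacna1c and the muscle sodium channel gene scn4aa. Of the 109, 79 stood at or above the filter's 1.77 CPM in every pool of both groups, 6 did so only in the EWSR1-ERG group and 16 only in the wild-type group. Of those 16, 7 were called lower, and of those 6, 2 were called higher. Members that entered through 1 group are therefore weighted towards a difference.

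Retinal channel genes were lower in EWSR1-ERG pools, 2 of 7 tested muscle channel genes were higher, and most neuronal channel genes were not called. In the quasi-likelihood test of edgeR, adjusted by Benjamini-Hochberg over all 17557 genes tested, 20 channel genes fell, 7 rose and 82 were not called. Among all tested genes 9.87% were called lower and 7.46% higher, or 17.3% in either direction. The shares among tested channel genes were 18.3%, 6.42% and 24.8%. Outside the retinal group and the duplicated kcnj1a copies, 97 channel genes were tested. Of these 97, 13.4% were called lower, 3.09% higher and 16.5% in either direction, the last near the share of all tested genes. The groups did not overlap in 35 channel genes that were lower in every EWSR1-ERG pool, against 18.0% of all tested genes, and in 7 that were higher, against 17.1%. The median log2 fold change (EWSR1-ERG over wild type) of the tested channel genes was -0.27, and 83 of 109 values were negative, where the median over all tested genes was 0.00. Without wild-type replicate 2, 7 of 114 channel genes were lower and 3 higher, against 981 and 646 of 18055 genes in all. The lower share of channel genes was then near that of all genes. Without wild-type replicate 1 the counts were 12 and 6 of 111, against 1135 and 718 of 17912. Without EWSR1-ERG replicate 1 they were 13 and 6 of 113, against 1504 and 1179 of 17922. Of the calls, 7 of the 20 lower and 3 of the 7 higher held in each of the 6 fits that left out 1 pool. These 3 were kcnj1a.3, kcnj1a.5 and kcnj1a.6, copies of a single duplicated family that also held the lower call of kcnj1a.2. How reads split among these copies is uncertain, and kcnj1a.3 and kcnj1a.5 entered the test through the EWSR1-ERG group.

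**Figure D1:**
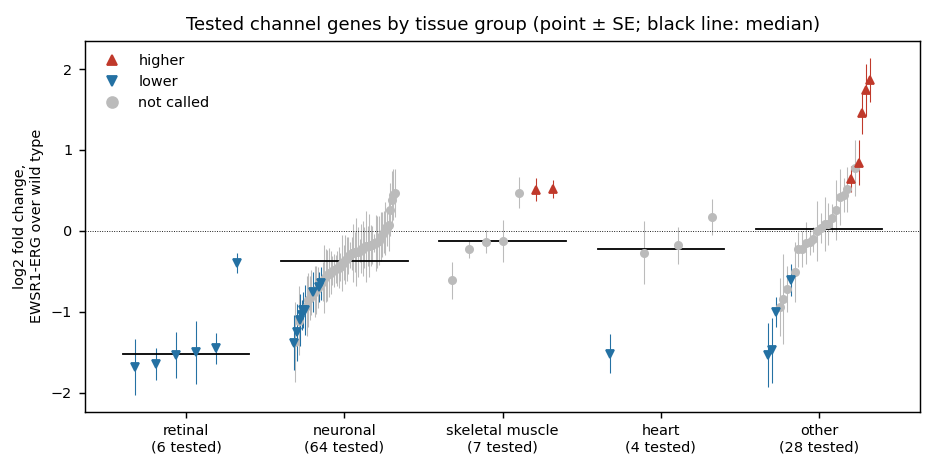
Log2 fold change (EWSR1-ERG over wild type, vertical axis) of every tested channel gene, ordered by value within 5 tissue groups; bars are standard errors and black lines group medians. The 6 retinal genes are all called lower, the 64 neuronal genes centre on a median of -0.37 with 9 called lower, and called higher genes appear in the skeletal muscle and other groups.

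By ion, the 3 classes had near medians, -0.25 for 34 tested calcium, -0.24 for 10 sodium and -0.27 for 65 potassium channel genes. Within the sodium class, however, the 5 pore-forming genes had a median of 0.07, with 2 negative values. Of the calcium channel genes 8 fell (23.5%) and 2 rose (5.88%). The cacna1f and cacna2d4 genes of the retinal group are among these 8. Of the sodium channel genes 1 fell (10%), and of the potassium channel genes 11 fell (16.9%) and 5 rose (7.69%). Over all tested genes 9.87% fell and 7.46% rose. The 8 lower calcium channel genes became 4 of 36 without EWSR1-ERG replicate 1 or wild-type replicate 1, and 4 of 37 without wild-type replicate 2. The 11 lower potassium channel genes became 6 of 67 without EWSR1-ERG replicate 2, 7 of 65 without wild-type replicate 1 and 3 of 66 without wild-type replicate 2. Of all genes, 1504 of 17922 were lower without EWSR1-ERG replicate 1 and 1432 of 17976 without EWSR1-ERG replicate 2. Without wild-type replicate 1 they were 1135 of 17912, and without wild-type replicate 2 they were 981 of 18055. Calcium channel genes summed to 330 to 429 CPM in EWSR1-ERG pools and 438 to 495 CPM in wild-type pools. Potassium channel genes summed to 420 to 496 CPM in EWSR1-ERG pools and 510 to 594 CPM in wild-type pools. Neither of these sums overlapped between the groups, whereas the sodium channel sum ran from 59.9 to 75.2 CPM in EWSR1-ERG pools and from 58.7 to 86.2 CPM in wild-type pools. These sums weigh long genes more, since reads were not scaled by length.

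**Figure D2:**
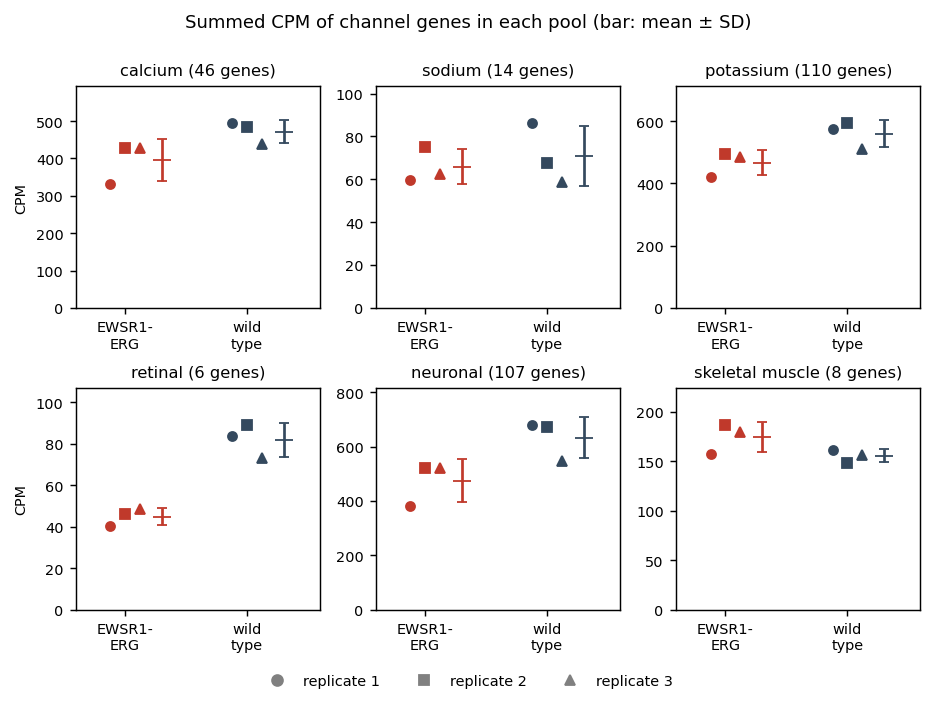
Summed CPM of channel genes (vertical axis) in each pool, by ion class in the upper row and by tissue group in the lower row; symbols are replicates and bars mean ± SD of 3 pools. The retinal sum has the largest relative difference of the 6 sums, at 44.9 CPM in EWSR1-ERG pools against 81.9 CPM in wild-type pools on average, and the sodium and skeletal muscle sums overlap.

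The retinal group held 6 genes, and all 6 fell, where 9.87% of all tested genes did. Of the 6, kcnv2a and kcnv2b reached the filter's 1.77 CPM in every wild-type pool but not in every EWSR1-ERG pool. They entered the test through the wild-type group and are weighted towards a fall. The alpha2delta gene cacna2d4b (ENSDARG00000023886, chromosome 25 of Zv9) stood at 4.29, 4.37 and 4.99 CPM in EWSR1-ERG pools, against 16.6, 14.9 and 11.5 CPM in wild-type pools. No wild-type pool came near the EWSR1-ERG pools, and the gene was 3.12-fold lower (log2 fold change -1.64, SE 0.202, adjusted p = 6.88e-05). The pore-forming gene CACNA1F (1 of 2), named cacna1fa in the gene name table (ENSDARG00000010933, chromosome 8), stood at 4.44, 4.90 and 4.30 CPM in EWSR1-ERG pools and at 13.4, 12.4 and 11.1 CPM in wild-type pools. The log2 fold change was -1.45 (SE 0.194, adjusted p = 0.000145). Its companion cacna1f (ENSDARG00000023683, also on chromosome 8) stood at 2.3, 1.92 and 2.84 CPM in EWSR1-ERG pools and at 7.79, 8.52 and 4.74 CPM in wild-type pools. This difference was of like size (-1.53, SE 0.284, adjusted p = 0.00194), with wild-type replicate 3 the nearest to the EWSR1-ERG pools.

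The photoreceptor potassium channel gene kcnv2a (ENSDARG00000076644, chromosome 10) stood at 1.23, 1.05 and 1.31 CPM in EWSR1-ERG pools, against 3.05, 5.42 and 3.39 CPM in wild-type pools. It had 92 counts in all, and its log2 fold change was -1.68 (SE 0.344, adjusted p = 0.00391). Its duplicate kcnv2b (chromosome 5) stood at 1.99, 1.05 and 0.768 CPM in EWSR1-ERG pools and at 2.54, 3.87 and 3.84 CPM in wild-type pools, and it fell by 1.5 (SE 0.394, adjusted p = 0.0176). That call ended without EWSR1-ERG replicate 2 (-1.44), EWSR1-ERG replicate 3 (-1.12), wild-type replicate 2 (-1.39) or wild-type replicate 3 (-1.41). The alpha2delta gene cacna2d4a (chromosome 4) changed least, with 26.0, 32.7 and 34.1 CPM in EWSR1-ERG pools and 40.5, 43.9 and 38.4 CPM in wild-type pools (-0.40, SE 0.127, adjusted p = 0.0454). Its call held when EWSR1-ERG replicate 3 was left out and ended without any other single pool, at values between -0.48 and -0.29.

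The calls of cacna2d4b, both cacna1f genes and kcnv2a held in every fit with 1 pool left out, and 4 or 5 of the 6 retinal genes were called in each such fit. Photoreceptor markers moved in the same direction: 14 of 14 tested fell, and their summed level was 1111 to 1295 CPM in EWSR1-ERG pools and 7646 to 8132 CPM in wild-type pools. The median log2 fold change was -2.65 for these markers and -1.52 for the 6 channel genes. The retinal channel sum amounted to 3.58% to 3.73% of the photoreceptor marker sum in EWSR1-ERG pools and to 0.951% to 1.1% in wild-type pools. This sum was weighted by cacna2d4a, which changed least. That gene averaged 30.9 of 44.9 CPM in EWSR1-ERG pools and 40.9 of 81.9 CPM in wild-type pools. Of 8 markers of bipolar cells and Mueller glia 5 fell, or 62.5% against 9.87% of all tested genes. They summed to 348 to 375 CPM in EWSR1-ERG pools and 406 to 426 CPM in wild-type pools. All 4 tested markers of the pigment epithelium fell, with sums of 6.58 to 22.7 CPM and 372 to 526 CPM. The part of these cell types in the channel values was not tested.

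**Figure D3:**
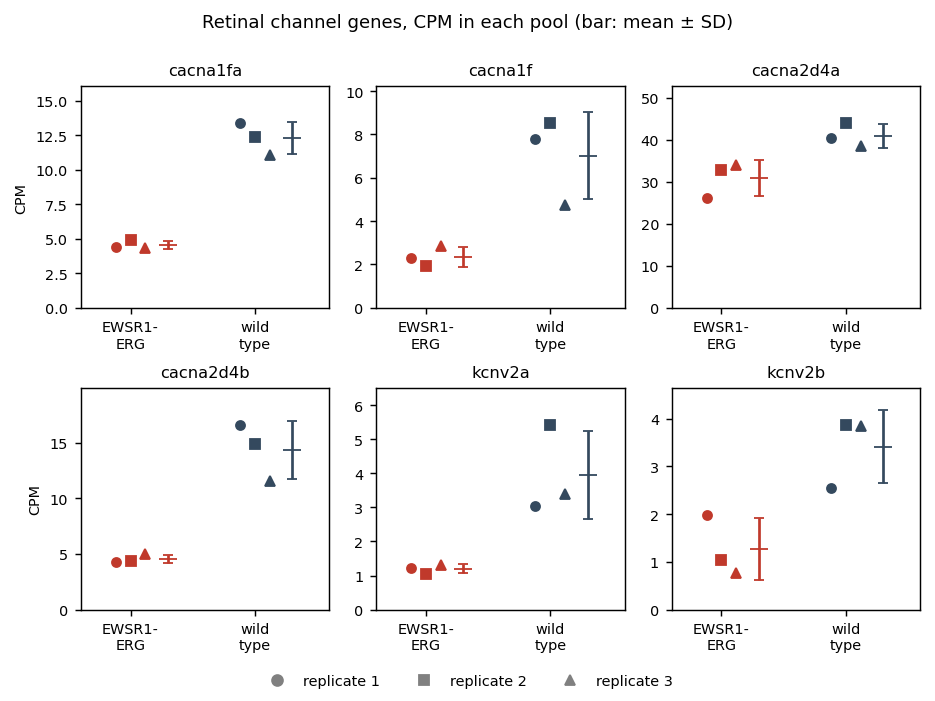
CPM (vertical axis) of the 6 retinal channel genes in each pool; symbols are replicates and bars mean ± SD of 3 pools. In each panel all EWSR1-ERG pools lie below all wild-type pools, and cacna2d4a has the smallest fold change of the 6.

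Beside the retinal genes, the beta subunit gene cacnb2b (ENSDARG00000055565, chromosome 2) fell among calcium channel genes. Beta subunits bring the pore-forming subunit to the membrane; this one was grouped with the heart, and in mice the gene also serves the photoreceptor synapse. It stood at 2.3, 2.27 and 2.53 CPM in EWSR1-ERG pools and at 7.62, 6.39 and 6.55 CPM in wild-type pools, which was 2.86-fold lower (-1.51, SE 0.244, adjusted p = 0.000646). This call held with each pool left out. Its duplicate cacnb2a (chromosome 7) stood at 6.89, 9.27 and 7.22 CPM in EWSR1-ERG pools and at 7.62, 5.42 and 7.46 CPM in wild-type pools, so its groups overlapped (0.17, adjusted p = 0.651). The heart channel genes kcnh6 and kcnq1, potassium channel genes of repolarisation, were not called. Heart markers differed in both directions, with 4 of 7 lower and 2 higher, against 9.87% and 7.46% of all tested genes.

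Neuronal channel genes leaned downward, and none was called higher by edgeR, DESeq2 or limma-voom; 0 had a positive value with an unadjusted edgeR p under 0.05. Of 64 tested, 9 fell, or 14.1% against 9.87% of all tested genes, and 57 had a negative log2 fold change, with a median of -0.37. The count of 9 became 4 of 67 without EWSR1-ERG replicate 1, against 1504 of 17922 genes in all. Without wild-type replicate 1 it was 4 of 65, against 1135 of 17912. Without wild-type replicate 2 it was 1 of 67, against 981 of 18055. In each of these fits the neuronal share was not above that of all genes. Without EWSR1-ERG replicate 2 it was above, at 8 of 68 against 1432 of 17976. The same held without EWSR1-ERG replicate 3 (9 of 66 against 1628 of 18044) and wild-type replicate 3 (9 of 65 against 1668 of 18090). Without EWSR1-ERG replicate 1 and wild-type replicate 3 together, a fit added after the data were seen, the count was 12 of 64. In that fit 2085 of 17728 genes in all were lower. Summed over the 107 neuronal genes, the level was 382, 521 and 521 CPM in EWSR1-ERG pools and 680, 673 and 547 CPM in wild-type pools. EWSR1-ERG replicate 1 and wild-type replicate 3 were thus the low pools of their groups. The 14 pan-neuronal markers found showed the same low pools, with 894, 1267 and 1272 CPM in EWSR1-ERG pools and 1874, 1768 and 1381 CPM in wild-type pools; 8 of the 14 fell, with a median of -0.55. The neuronal channel sum was 41.0% to 42.8% of the pan-neuronal sum in EWSR1-ERG pools and 36.3% to 39.6% in wild-type pools. The part of neuron number in these values was not tested.

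Among neuronal potassium channel genes, 5 of 36 tested fell, or 13.9% against 9.87% of all tested genes. At least kcnip3a and kcnip3b of these 5 reached the filter's 1.77 CPM in every wild-type pool but not in every EWSR1-ERG pool. These 2 calls entered the test through the wild-type group and are weighted towards a fall. Whether the same holds for kcna6, another of the 5, is not given here. The delayed rectifier gene kcnb2 (ENSDARG00000038862, chromosome 2) had the smallest p-value, with 8.88, 6.65 and 9.68 CPM in EWSR1-ERG pools and 15.1, 19.4 and 18.8 CPM in wild-type pools. It was 2.06-fold lower (-1.04, SE 0.182, adjusted p = 0.00125), and the call held with each pool left out. The G protein-gated inward rectifier gene KCNJ3 (1 of 2), which carries slow inhibitory currents (chromosome 6), stood at 3.68, 4.37 and 5.30 CPM in EWSR1-ERG pools and at 8.97, 10.1 and 7.91 CPM in wild-type pools (-0.98, SE 0.220, adjusted p = 0.00717). Its call ended without wild-type replicate 2 (-0.90, adjusted p = 0.0511). The other copy, KCNJ3 (2 of 2), was not called (-0.56, adjusted p = 0.283).

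The calcium sensor gene kcnip3a, whose product modulates A-type potassium channels (chromosome 8), stood at 0.919, 2.10 and 2.92 CPM in EWSR1-ERG pools and at 4.91, 6.58 and 5.20 CPM in wild-type pools. The log2 fold change was -1.38 (SE 0.338, adjusted p = 0.0119), and this call ended without wild-type replicate 2 (-1.25). Its duplicate kcnip3b fell by 0.97 (adjusted p = 0.0433), a call that ended whichever pool was left out. The delayed rectifier gene kcna6 fell by 1.25 (adjusted p = 0.0253), a call that held without EWSR1-ERG replicate 3 or wild-type replicate 3 and ended without any other single pool, at values from -1.39 to -1.02 over the 6 fits.

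Fast-spiking channels of the KCNC family were among the potassium channel genes with the most counts, and none of the 5 tested was called by edgeR, DESeq2 or limma-voom, with 2 at an unadjusted edgeR p under 0.05. Expression of kcnc3a was 22.2, 40.8 and 36.0 CPM in EWSR1-ERG pools and 54.0, 40.3 and 35.0 CPM in wild-type pools (-0.39, SE 0.218, adjusted p = 0.267). Expression of kcnc2 was 33.1, 37.1 and 34.0 CPM in EWSR1-ERG pools and 37.8, 40.6 and 37.0 CPM in wild-type pools (-0.15, SE 0.111, adjusted p = 0.405). The kcnc3a values overlapped, and EWSR1-ERG replicate 1 was the lowest pool. For kcnc1a, named after its value was seen, the log2 fold change was -0.82 (adjusted p = 0.0523). Calcium-activated potassium channel genes, which shape the afterhyperpolarisation, had 6 tested members and no call by the same tools, with 2 at an unadjusted edgeR p under 0.05; kcnma1a, the large-conductance channel gene, had -0.49 (adjusted p = 0.0743). Among 9 tested genes of the ERG, EAG and KCNQ families none was called by these tools, and 0 had an unadjusted edgeR p under 0.05.

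Of 19 neuronal calcium channel genes tested, 3 fell, or 15.8% against 9.87% of all tested genes. The 3 were accessory genes. CACNA2D3 (1 of 2), an alpha2delta gene, stood at 1.84, 4.02 and 3.07 CPM in EWSR1-ERG pools and at 7.79, 7.16 and 3.84 CPM in wild-type pools (-1.10, SE 0.320, adjusted p = 0.0294). Its groups overlapped through wild-type replicate 3, and the call ended without EWSR1-ERG replicate 1 (-0.89), EWSR1-ERG replicate 3 (-1.14), wild-type replicate 1 (-0.91) or wild-type replicate 2 (-1.0). The products of cacng2 and cacng3 genes are regulators of AMPA-type glutamate receptors rather than channel subunits in the strict sense. Expression of cacng3b was 10.4, 17.5 and 14.6 CPM in EWSR1-ERG pools and 26.7, 22.3 and 16.9 CPM in wild-type pools (-0.65, SE 0.200, adjusted p = 0.0404), again with overlap. Its call held without EWSR1-ERG replicate 2 or wild-type replicate 3 and ended without any other pool, over a range of -0.79 to -0.48. The call of cacng2b (-0.75, adjusted p = 0.0466) held only without EWSR1-ERG replicate 3, over a range of -1.03 to -0.52. All 7 tested genes of this AMPA receptor regulator group had negative values, from -0.85 to -0.45.

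Of the pore-forming calcium channel genes of the P/Q, N, R and T types, none was called by edgeR, DESeq2 or limma-voom, and 1 had an unadjusted edgeR p under 0.05. This was cacna1r, which the gene name table lists as CACNA1E, the R-type gene, and which was counted here with the other members and not with the neuronal ones because of its symbol. It stood at 2.14, 4.72 and 4.15 CPM in EWSR1-ERG pools and at 6.94, 5.03 and 6.33 CPM in wild-type pools, without overlap (-0.72, SE 0.286, adjusted p = 0.104). The 5 P/Q-, N- and R-type genes counted as neuronal, whose products trigger transmitter release at most synapses, lay between -0.19 and 0.26 and the 3 T-type genes, which fire near rest, between -0.26 and 0.47. Among calcium channel genes not called, cacnb4b had the most counts, with 35.2, 48.8 and 46.8 CPM in EWSR1-ERG pools and 54.7, 56.1 and 44.1 CPM in wild-type pools (-0.25, SE 0.139, adjusted p = 0.265).

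Of 10 sodium channel genes tested, 1 was called, and no pore-forming gene was. The 5 pore-forming genes lay between -0.31 and 0.47, with 0 called by edgeR, DESeq2 or limma-voom and 1 at an unadjusted edgeR p under 0.05.

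The main neuronal pore-forming gene by counts, scn8aa, which is needed for repetitive firing, stood at 7.50, 9.97 and 10.4 CPM in EWSR1-ERG pools and at 14.9, 11.8 and 7.68 CPM in wild-type pools. These values overlapped (-0.31, SE 0.227, adjusted p = 0.41). Expression of scn1lab, whose loss causes seizures in zebrafish larvae, had a log2 fold change of 0.45 (adjusted p = 0.384). At counts this low the standard errors of the tested sodium channel genes had a median of 0.292, so that small differences were not detectable.

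In skeletal muscle, 2 channel genes rose and 5 of the 7 tested were not called. The 2 made up 28.6%, where 7.46% of all tested genes were called higher. The median log2 fold change of the 7 was -0.12, and 4 of them had negative values. The gamma subunit gene cacng1 of the muscle L-type channel (ENSDARG00000008772, chromosome 6) stood at 46.9, 52.7 and 51.8 CPM in EWSR1-ERG pools and at 35.0, 32.3 and 38.6 CPM in wild-type pools. The log2 fold change was 0.52 (SE 0.114, adjusted p = 0.00638), and this call ended without wild-type replicate 2 (0.45, adjusted p = 0.0632). The voltage sensor gene cacna1sb (ENSDARG00000042552, chromosome 8), the copy known from fast muscle in zebrafish, stood at 27.7, 38.3 and 34.9 CPM in EWSR1-ERG pools and at 24.9, 23.4 and 22.4 CPM in wild-type pools (0.51, SE 0.139, adjusted p = 0.0207). That call held without EWSR1-ERG replicate 1 (0.63) and ended without any other single pool, down to 0.42.

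The other voltage sensor copy, cacna1sa (chromosome 22), known from slow muscle, had the opposite sign, with 4.90, 8.40 and 6.45 CPM in EWSR1-ERG pools and 9.48, 11.8 and 8.58 CPM in wild-type pools (-0.61, SE 0.226, adjusted p = 0.0796). It was not called, and it passed without EWSR1-ERG replicate 2 (-0.78, adjusted p = 0.0469). The within-pool log2 ratio of cacna1sa to cacna1sb, with 0.5 CPM added, was -2.39, -2.13 and -2.35 in EWSR1-ERG pools and -1.35, -0.96 and -1.33 in wild-type pools. This ratio did not overlap between the groups, with a two-sided exact permutation p of 0.1, the smallest that 3 pools against 3 allow, and 0.425 after adjustment over the 17 duplicate pairs tested.

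The muscle beta subunit gene cacnb1 stood at 34.9, 40.4 and 42.9 CPM in EWSR1-ERG pools and at 45.7, 47.2 and 45.6 CPM in wild-type pools (-0.22, SE 0.114, adjusted p = 0.207). The muscle sodium channel gene scn4ab stood at 21.3, 23.3 and 18.6 CPM in EWSR1-ERG pools and at 19.6, 11.4 and 13.6 CPM in wild-type pools (0.47, SE 0.187, adjusted p = 0.102), and it passed without wild-type replicate 1 (0.74). The gamma subunit genes cacng6a and cacng6b had -0.13 (adjusted p = 0.58) and -0.12 (adjusted p = 0.804). Skeletal muscle markers summed to 38726 to 50627 CPM in EWSR1-ERG pools and to 39173 to 41946 CPM in wild-type pools, which overlap. Of these 15 markers 3 rose (20%) and 2 fell (13.3%), against 7.46% and 9.87% of all tested genes.

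**Figure D4:**
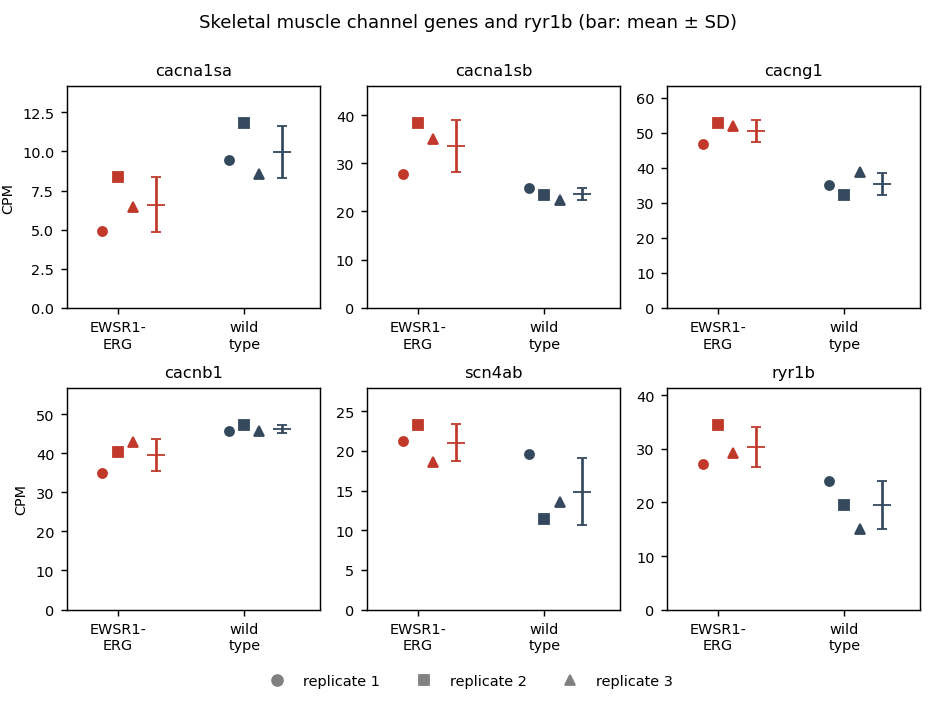
CPM (vertical axis) of 5 muscle channel genes and of ryr1b, a calcium release channel gene, in each pool; symbols are replicates and bars mean ± SD of 3 pools. All EWSR1-ERG pools lie above all wild-type pools in cacna1sb, cacng1 and ryr1b and below them in cacna1sa and cacnb1.

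Over all tested genes 7.46% rose and 9.87% fell. Of 14 genes of excitation-contraction coupling outside the channel families, 3 rose (21.4%) and 2 fell (14.3%), with a median of -0.01. The ryanodine receptor genes, whose products release calcium from the sarcoplasmic reticulum, were among them. Expression of ryr1b, the copy known from fast muscle, averaged 30.3 ± 3.74 CPM in EWSR1-ERG pools and 19.6 ± 4.45 CPM in wild-type pools (0.61, adjusted p = 0.0187), and that of ryr3 averaged 149 ± 40.0 and 77.1 ± 14.1 CPM (0.95, adjusted p = 0.00899; SD, n = 3 per group). The slow-muscle copy ryr1a was not called (-0.19, adjusted p = 0.532). The call of ryr1b ended without EWSR1-ERG replicate 2 (0.52), wild-type replicate 2 (0.60) or wild-type replicate 3 (0.47). This gene was also counted among the skeletal muscle markers. The third higher gene was jph2, a junctional membrane protein gene (0.42, adjusted p = 0.0386), whose call held only without EWSR1-ERG replicate 1 among the fits with 1 pool left out. The lower genes were casq1a, a calcium-binding protein gene of the reticulum (-0.80, adjusted p = 0.00262), and atp2a2a, a calcium pump gene (-0.57, adjusted p = 0.00755).

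Inward rectifiers held calls in both directions, with values from -1.53 to 1.87. Of 15 tested, 4 rose and 4 fell, or 26.7% each, against 7.46% and 9.87% of all tested genes. Of these 8, 5 were copies of a single duplicated family on chromosome 18. Their products resemble the renal potassium channel KCNJ1, which secretes potassium across epithelia, and in zebrafish such channels are known from skin ionocytes. Expression of kcnj1a.5 (ENSDARG00000089060) was 9.95, 8.92 and 7.06 CPM in EWSR1-ERG pools and 2.88, 1.74 and 2.26 CPM in wild-type pools. It was 3.65-fold higher (1.87, SE 0.271, adjusted p = 0.000278). Expression of kcnj1a.6 was 8.12, 10.3 and 6.68 CPM in EWSR1-ERG pools and 2.88, 2.90 and 3.16 CPM in wild-type pools (1.46, SE 0.256, adjusted p = 0.00129). Expression of kcnj1a.3 was 7.81, 6.12 and 5.38 CPM in EWSR1-ERG pools and 1.02, 2.52 and 2.26 CPM in wild-type pools (1.74, SE 0.326, adjusted p = 0.0021). Of these copies, kcnj1a.3 and kcnj1a.5 reached the filter's 1.77 CPM in every EWSR1-ERG pool but not in every wild-type pool. They entered the test through the EWSR1-ERG group and are weighted towards a rise.

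In the opposite direction, kcnj1a.2 (ENSDARG00000090866) stood at 7.35, 5.42 and 7.76 CPM in EWSR1-ERG pools and at 14.6, 13.0 and 14.5 CPM in wild-type pools, which was 2.00-fold lower (-1.0, SE 0.185, adjusted p = 0.00187). The calls of kcnj1a.2, kcnj1a.3, kcnj1a.5 and kcnj1a.6 held with each pool left out. The value of kcnj1a.4 was 0.84 (adjusted p = 0.0494), a call that ended whichever pool was left out, and kcnj1a.1 was not called (0.04, adjusted p = 0.921). Together the 6 copies summed to 49.0, 44.8 and 42.1 CPM in EWSR1-ERG pools and to 33.7 CPM in each wild-type pool. The share of kcnj1a.2 in this sum was 15.0%, 12.1% and 18.4% in EWSR1-ERG pools, against 43.2%, 38.5% and 43.0% in wild-type pools. In RefSeq's annotation of the GRCz12tu assembly the copies form an unbroken row from kcnj1a.6 to kcnj1a.1, so the higher copies lie next to each other and the lower copy between them and kcnj1a.1. Since these copies are alike and the handling of reads that match several genes is not given, the split of reads among them is uncertain.

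**Figure D5:**
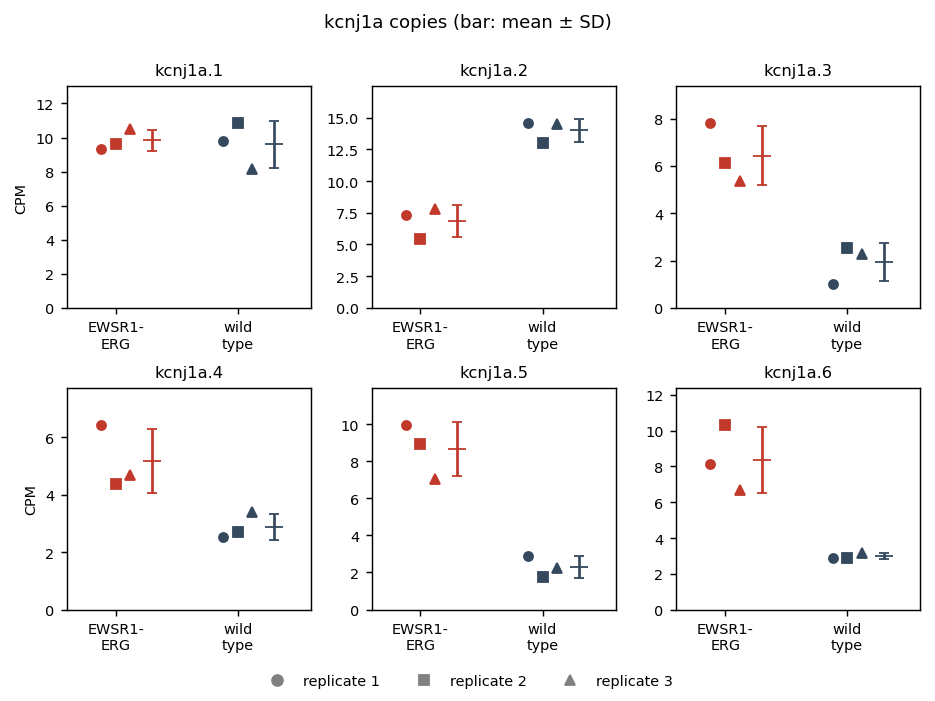
CPM (vertical axis) of the 6 kcnj1a copies in each pool; symbols are replicates and bars mean ± SD of 3 pools. The copies kcnj1a.3 to kcnj1a.6 lie above the wild-type pools in every EWSR1-ERG pool, kcnj1a.2 lies below, and kcnj1a.1 overlaps.

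On chromosome 10, kcnj1b stood at 1.53, 0.525 and 1.08 CPM in EWSR1-ERG pools and at 2.20, 3.68 and 3.61 CPM in wild-type pools (-1.53, SE 0.394, adjusted p = 0.0156). Its call ended without EWSR1-ERG replicate 2 (-1.31) or wild-type replicate 2 (-1.41). This gene stood below the filter's 1.77 CPM in every EWSR1-ERG pool and above it in every wild-type pool. It entered the test through the wild-type group and is weighted towards a fall. The ATP-sensitive channel gene kcnj11, known from pancreatic beta cells, fell by 0.61 (adjusted p = 0.0494), a call that held without EWSR1-ERG replicate 1 and ended without any other single pool. The related kcnj11l was not called (-0.13, adjusted p = 0.637). The pigment pattern and pigment epithelium gene kcnj13 stood at 11.8, 24.0 and 20.7 CPM in EWSR1-ERG pools and at 19.8, 22.1 and 24.6 CPM in wild-type pools, with overlap (-0.22, SE 0.215, adjusted p = 0.54).

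Of 7 two-pore domain genes tested, which carry background potassium currents, kcnk6 rose and kcnk15 fell. Each made up 14.3%, where 7.46% of all tested genes were called higher and 9.87% lower. Expression of kcnk6 (ENSDARG00000007383, chromosome 18) was 17.2, 17.7 and 14.7 CPM in EWSR1-ERG pools and 10.8, 10.6 and 9.71 CPM in wild-type pools (0.65, SE 0.160, adjusted p = 0.0127). The call ended without wild-type replicate 2 (0.66, adjusted p = 0.0545). For kcnk15, with 55 counts in all, the log2 fold change was -1.47 (adjusted p = 0.0218), and the call held only without EWSR1-ERG replicate 2 or wild-type replicate 3, over a range of -1.74 to -1.30. At so few counts kcnk15 did not reach the filter's 1.77 CPM in every EWSR1-ERG pool. Its passing depended on wild-type pools, so this call too is weighted towards a fall. In kcnk9, named after its values were seen, EWSR1-ERG replicate 3 stood at 1.08 CPM, against 6.89 and 7.00 CPM in the other EWSR1-ERG pools and 7.16 to 8.63 CPM in wild-type pools (-0.84, adjusted p = 0.372).

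Duplicate gene pairs, named by a final a or b, allowed a comparison within each pool. Both copies fell in 3 of 17 pairs (cacna2d4, kcnv2 and kcnip3), 1 copy was called in 3 pairs (cacna1s, cacnb2 and cacng2) and neither in 11. In 4 pairs the within-pool ratio did not overlap between the groups and reached the smallest possible exact permutation p of 0.1, with an adjusted p of 0.425. Among them were cacna1s, cacna2d4 and cacnb2. The log2 ratio of cacnb2a to cacnb2b was 1.40, 1.82 and 1.35 in EWSR1-ERG pools and 0.00, -0.22 and 0.17 in wild-type pools. The log2 ratio of cacna2d4a to cacna2d4b was 2.47, 2.77 and 2.66 in EWSR1-ERG pools and 1.26, 1.53 and 1.69 in wild-type pools. In cacnb2 and cacna2d4 the b copy was lower relative to the a copy in EWSR1-ERG pools, and in cacna1s it was higher.

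Genes that work with these channels gave the following counts, where 9.87% of all tested genes were called lower and 7.46% higher. Of 17 genes of calcium-triggered release found, 13 were tested and 8 fell, with a median of -0.72. They included cabp2a, a calcium-binding regulator of calcium channels, which averaged 2.84 ± 0.397 CPM in EWSR1-ERG pools and 12.2 ± 0.587 CPM in wild-type pools (-2.06, adjusted p = 1.24e-05; SD, n = 3 per group). They also included rims2b, a gene of the active zone scaffold (-0.92, adjusted p = 0.00127), and the synaptotagmin gene syt5b, a calcium sensor of vesicles (-1.35, adjusted p = 1.11e-06). The 8 also held stxbp1a and syt1a, which were counted among the pan-neuronal markers as well. In the same list cabp5a and cabp5b, neither called, were also counted as markers of bipolar cells and Mueller glia. Of 11 cyclic nucleotide-gated and hyperpolarisation-activated channel genes found, 7 were tested and 3 fell: cnga3a of cones (-1.92, adjusted p = 0.00187), cnga1 of rods (-1.74, adjusted p = 0.0088) and hcn3 (-1.44, adjusted p = 0.0106). The calls of cnga1 (-1.48) and hcn3 (-1.32) ended without wild-type replicate 1. All 3 genes stood below the filter's 1.77 CPM in every EWSR1-ERG pool and above it in every wild-type pool. They entered the test through the wild-type group, so they too are weighted towards a fall.

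Sodium and potassium channels are anchored at the axon initial segment and node. Of 14 tested genes of these sites 2 fell, or 14.3% against 9.87% of all tested genes, with a median of -0.23. These were cntn1b, an adhesion protein gene (-0.71, adjusted p = 0.0227), and SPTBN4 (1 of 3), a spectrin gene (-1.26, adjusted p = 0.0117). SPTBN4 (1 of 3) reached the filter's 1.77 CPM in every wild-type pool but not in every EWSR1-ERG pool. It entered the test through the wild-type group and is weighted towards a fall. The call of cntn1b ended without wild-type replicate 1 (-0.65) or wild-type replicate 2 (-0.59), and that of SPTBN4 (1 of 3) without EWSR1-ERG replicate 3 (-1.0) or wild-type replicate 1 (-1.12). None of 9 potassium channel partner genes (median -0.22) and none of 3 sodium leak channel genes (median -0.45) was called by edgeR, DESeq2 or limma-voom, and 2 and 0 had an unadjusted edgeR p under 0.05. Of 11 genes of the sodium-potassium pump, which maintains the gradients that these channels use, 6 fell and none rose, with a median of -0.42. The beta subunit gene atp1b2b had the widest difference among them, with 15.4 ± 2.93 CPM in EWSR1-ERG pools and 45.1 ± 2.25 CPM in wild-type pools (-1.53, adjusted p = 5.35e-06; SD, n = 3 per group). Of the 6 lower pump genes, atp1a3a and atp1a3b were also counted among the pan-neuronal markers. Glial and myelin markers summed to 978 to 1199 CPM in EWSR1-ERG pools and 1458 to 1515 CPM in wild-type pools, with 5 of 10 lower. Myeloid markers summed to 210 to 277 CPM in EWSR1-ERG pools and 82.3 to 91.9 CPM in wild-type pools. Of these 8 markers 7 were higher, against 7.46% of all tested genes. The part of these cell types in the channel values was not tested.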

How the data were processed

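Each deposited file gives whole counts of reads per Ensembl gene. They were handled like estimated counts because a size factor, which is not whole and was not applied, closes every deposited file. Bowtie2, SAMtools and DESeq are listed, with the Zv9 build, among the submitters' processing notes; no version, counting tool or strand setting was stated there, so reads of overlapping genes on opposite strands cannot be told apart. The 2 lines per file without a gene were left out. Labels call the pools biological replicas; the p-values measure the spread between pools.

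Genes passed edgeR 4.0.16 filterByExpr (minimum count 10, minimum total 15). Counts were scaled by TMM and the groups compared in edgeR (robust quasi-likelihood fit, F test) over all genes, Benjamini-Hochberg, threshold 0.05. The SE is the log2 fold change over the square root of F. Alternatives used limma 3.58.1 and DESeq2 1.42.0; the fit was tested on simulated data. Duplicate pairs were compared by two-sided exact permutation tests. Tissue groups were set from gene symbols by general knowledge. A further 12 genes with 10 or more counts match the families only by name table and were not members. Of 170 members 140 were found in that table. Named genes were all tested retinal and muscle members, per ion the 6 lower and 4 higher genes with the smallest p-values and the 2 uncalled ones with the highest CPM, and the 4 duplicate pairs with the widest difference among those with unlike calls (3 existed); others named are the remaining calls and genes chosen after their values were seen. The members and lists were chosen with earlier results of these data known. Some members are not reported here by name.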

Additional observations from a re-analysis of the deposited data

How the results depend on the processing

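Depth limits these results: the median standard error was 0.271 on the log2 scale for tested channel genes and 0.182 for all tested genes. At an unadjusted edgeR p under 0.05, 37 channel genes were lower and 9 higher, against 20 and 7 after adjustment. The share of all tested genes at that unadjusted threshold is not given here, so 37 and 9 cannot be read as an excess. Of 1258 values recomputed for 74 named genes, 1086 kept their direction and side of the threshold, 149 lost significance, 13 gained it and 10 changed sign. Retinal genes called lower numbered 6, and 5 with DESeq2, limma-voom, library totals alone or the replicate block, and 4 against a fold change of 1.5. The medians of the retinal and neuronal groups stayed negative under every scaling.

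Against a fold change of 1.5, 484 genes were called lower and 294 higher in all; of channel genes 5 were lower and 3 higher, of calcium channel genes 4 and 0, of sodium channel genes 0 lower, of potassium channel genes 1 and 3, of neuronal genes 0 lower and of muscle genes 0 higher. DESeq2 called 12 of 141 channel genes lower, against 1375 of 20659 genes in all. By ion these were 5 of 42 calcium, 0 of 12 sodium and 7 of 87 potassium channel genes. The neuronal group had 4 of 91 lower, a share below that of all genes. Library totals alone gave 5 of 34 calcium channel genes lower, against 1575 of 17557 genes in all. For sodium channel genes limma-voom called 2 of 10 lower, against 1711 of 17557 in all. The fit with no filter on low counts called 2 of 14 lower, against 1863 of 26925.

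Deviations of log CPM from the group means correlated at -0.123, 0.0881 and -0.0213 between same-numbered pools of the 2 groups. Between pools of unlike number they correlated at -0.197 to 0.174, so the same-numbered pools did not stand out. Whether pools of the 2 groups share a clutch or batch was not tested. With the replicate block 13 of 109 channel genes were lower, against 1482 of 17557 genes in all. By ion these included 5 of 34 calcium and 7 of 65 potassium channel genes. The neuronal group had 5 of 64 lower, a share not above that of all genes.

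Leaving out pools, including EWSR1-ERG replicate 1 and wild-type replicate 3 together, a choice made after seeing the data, gave 981 to 2085 genes lower and 646 to 1657 higher in all. Channel genes ranged from 7 to 22 lower and 3 to 6 higher, calcium channel genes from 4 to 9 and 0 to 2, sodium channel genes from 0 to 2 and 0 to 1, and potassium channel genes from 3 to 12 and 3 to 5. Neuronal genes called lower ranged from 1 to 12, and muscle genes from 0 to 1 lower and 0 to 2 higher. Of uncalled genes, sign changes gave scn8ab -0.46 to 0.35, cacna1da -0.24 to 0.01, kcnj13 -0.40 to 0.08 (0.00 without EWSR1-ERG replicate 1), cacng6b -0.31 to 0.22 (0.02 and 0.10 without EWSR1-ERG replicate 1 or wild-type replicate 3) and kcnj1a.1 -0.05 to 0.13 (-0.02 without EWSR1-ERG replicate 3). The cause of these changes was not tested.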
